A study of Homo sapiens with 12 samples.

Results

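Gene expression was compared between H1650 cells kept with 10 µM erlotinib for 36 h and H1650 cells collected at T0, the time of drugging, when they had received 0.1% DMSO vehicle. Each group held 2 libraries, so the comparison was between 4 of the 12 libraries of the study, chosen by their labels and described across all genes. H1650 is a human non-small cell lung cancer line, labelled wild-type in genotype although the tumor line carries mutations of its own, and it was grown in RPMI with 10% fetal bovine serum. Cells were plated the day before drugging, trypsinized and counted at the end point, and their polyadenylated RNA was sequenced. The other 8 libraries were H1650 cells given 0.1 µM osimertinib for 36 h and the same 3 groups of PC9, a second non-small cell lung cancer line, with 2 libraries each. No H1650 library was taken after 36 h without drug, so the drug and the time in culture cannot be told apart in the comparison with T0. Erlotinib and osimertinib were given at different doses, so compound and dose cannot be told apart either. The study describes the libraries of a group as biological replicates, the labels do not say how their cultures were kept apart, and the p-values measure the spread between these libraries.

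Erlotinib is a small-molecule tyrosine kinase inhibitor used against lung cancer. Growth factor receptors of the ERBB family signal through ERK, which drives immediate early genes, ETS factors and its own feedback inhibitors, and through AKT, which keeps the FOXO transcription factors out of the nucleus. Other programs followed here have their own switches. SRF with its actin-sensing cofactors and TEAD with YAP drive genes of the cytoskeleton and matrix when cells spread. ATF4 is made when a kinase senses a lack of amino acids or another stress, and it drives genes that synthesize, import and charge amino acids. Factors of the STAT and IRF families switch on the antiviral genes downstream of interferon receptors.

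The 4 libraries held between 17961765 and 26346187 counts. Values are given as normalized CPM, in which the counts of a gene are scaled by the size of the library and its TMM factor, with replicate 1 before replicate 2 and, where a sentence gives pairs for both groups, T0 before erlotinib. Errors of log2 fold changes are SE, and adjusted p-values come from the quasi-likelihood F test of edgeR, adjusted over all genes tested by the Benjamini-Hochberg method. A count of 0 allows up to 0.116 to 0.155 CPM per library, for counting error only. The epithelial markers EPCAM, CDH1, KRT7, KRT8, KRT18 and KRT19 were present in every library and summed to 8609 and 8194 CPM at T0. The lung adenocarcinoma markers NKX2-1, SFTPB and SFTPC did not pass the filter on low counts. NAPSA read 0.560 and 0.463 CPM. The leukocyte markers PTPRC, CD3E and NKG7 and the fibroblast markers DCN and LUM did not pass the filter either, whereas the myeloid receptor CSF1R read 56.6 and 52.6 CPM at T0 and 19.6 and 19.6 CPM with erlotinib. The 4 fibroblast markers that passed it, COL3A1 among them, summed to 25.2 and 24.8 CPM at T0 and 18.8 and 17.2 CPM with erlotinib. The endothelial markers summed to 5.04 and 5.90 CPM at T0, most of it TEK. Mitochondrial genes took 4.36% and 5.36% of the counts at T0 and 6.51% and 6.60% with erlotinib. Their part in the results was not tested. In bulk RNA, fewer cells of a type and less RNA per cell cannot be told apart.

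Of 19108 genes tested, 6966 (36.5%) differed between erlotinib and T0 at an adjusted p under 0.05, and such genes are named called below. Of these, 3438 (18.0% of the genes tested) were higher with erlotinib and 3528 (18.5%) were lower. A change of more than 2-fold was called for 1552 genes, of which 1050 were higher and 502 were lower. With only genes of at least 10 counts in each of the 12 libraries kept, PC9 included, that number was 772. The median log2 fold change over all genes tested was 0.01, and its median size was 0.35. The counts of each gene group below can be read against these shares.

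Among genes of at least 10 CPM on average, the 12 strongest rises included genes of the amino acid and stress response, of interferon signaling and of membrane traffic. GDF15, a secreted stress hormone, read 2.19 and 1.62 CPM at T0 and 29.1 and 24.8 CPM with erlotinib, a 14.2-fold rise (log2 fold change 3.83 ± 0.21, adjusted p = 5e-14). NUPR1, a small chromatin protein induced by stress, went from 13.2 and 13.8 CPM to 103 and 109.6 CPM (7.87-fold, adjusted p = 1.5e-17). Both pairs of erlotinib libraries lay far above their T0 pairs. ADM2, a peptide hormone, rose by 3.26 on the log2 scale, KLHDC7B, a kelch-domain protein, by 2.84, and RAB26, a GTPase of secretory vesicles, by 2.79. IFITM1, a membrane protein that blocks virus entry, read 9.61 and 8.99 CPM at T0 and 63.9 and 63.7 CPM with erlotinib. STEAP4, a metalloreductase, and ASS1, the argininosuccinate synthase of arginine synthesis, rose by 2.55 and 2.49 on the log2 scale. The long noncoding RNA LINC01133 rose by 2.57, and CHAC1, PSAT1 and IFI44L complete the set and are described with their groups.

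The 12 strongest falls at the same minimum level held genes of wound-type keratin, of the extracellular matrix and of growth factor signaling. GLIPR1, a secreted cysteine-rich protein, read 78.8 and 85.9 CPM at T0 and 7.22 and 9.87 CPM with erlotinib, a 9.59-fold fall (log2 fold change -3.26 ± 0.12, adjusted p = 1.1e-17). MYH15, a myosin heavy chain, fell from 18.7 and 20.4 CPM to 2.58 and 3.44 CPM. SPOCD1, a nuclear protein, read 35.9 and 35.5 CPM at T0 and 5.37 and 5.77 CPM with erlotinib. S100A2, a calcium-binding protein of basal epithelium, read 30.4 and 29.7 CPM and 5.47 and 6.33 CPM. In each of these genes the erlotinib libraries lay below the T0 libraries without overlap. NEXN, an actin-binding protein, changed by -2.19 on the log2 scale. KRT6A, FOSL1, CCN1, CCN2, EGR1, VIM and SERPINE2 were the other members and are taken up below.

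**Figure D1:**
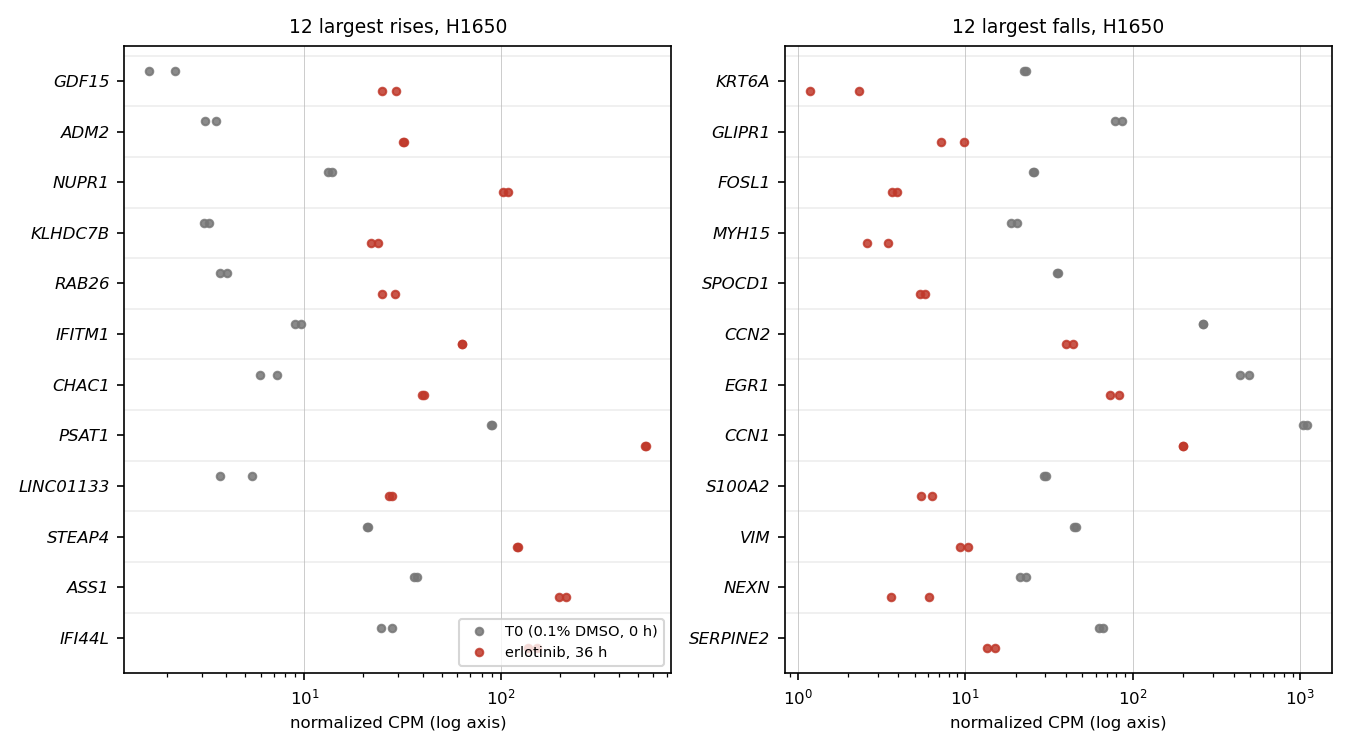
Normalized CPM on a log axis of the 12 genes with the highest and the 12 with the lowest log2 fold change in H1650 erlotinib against T0. Each point is 1 library, with T0 and erlotinib in separate colors. The erlotinib points lie apart from the T0 points in all 24 genes shown.

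**Figure D2:**
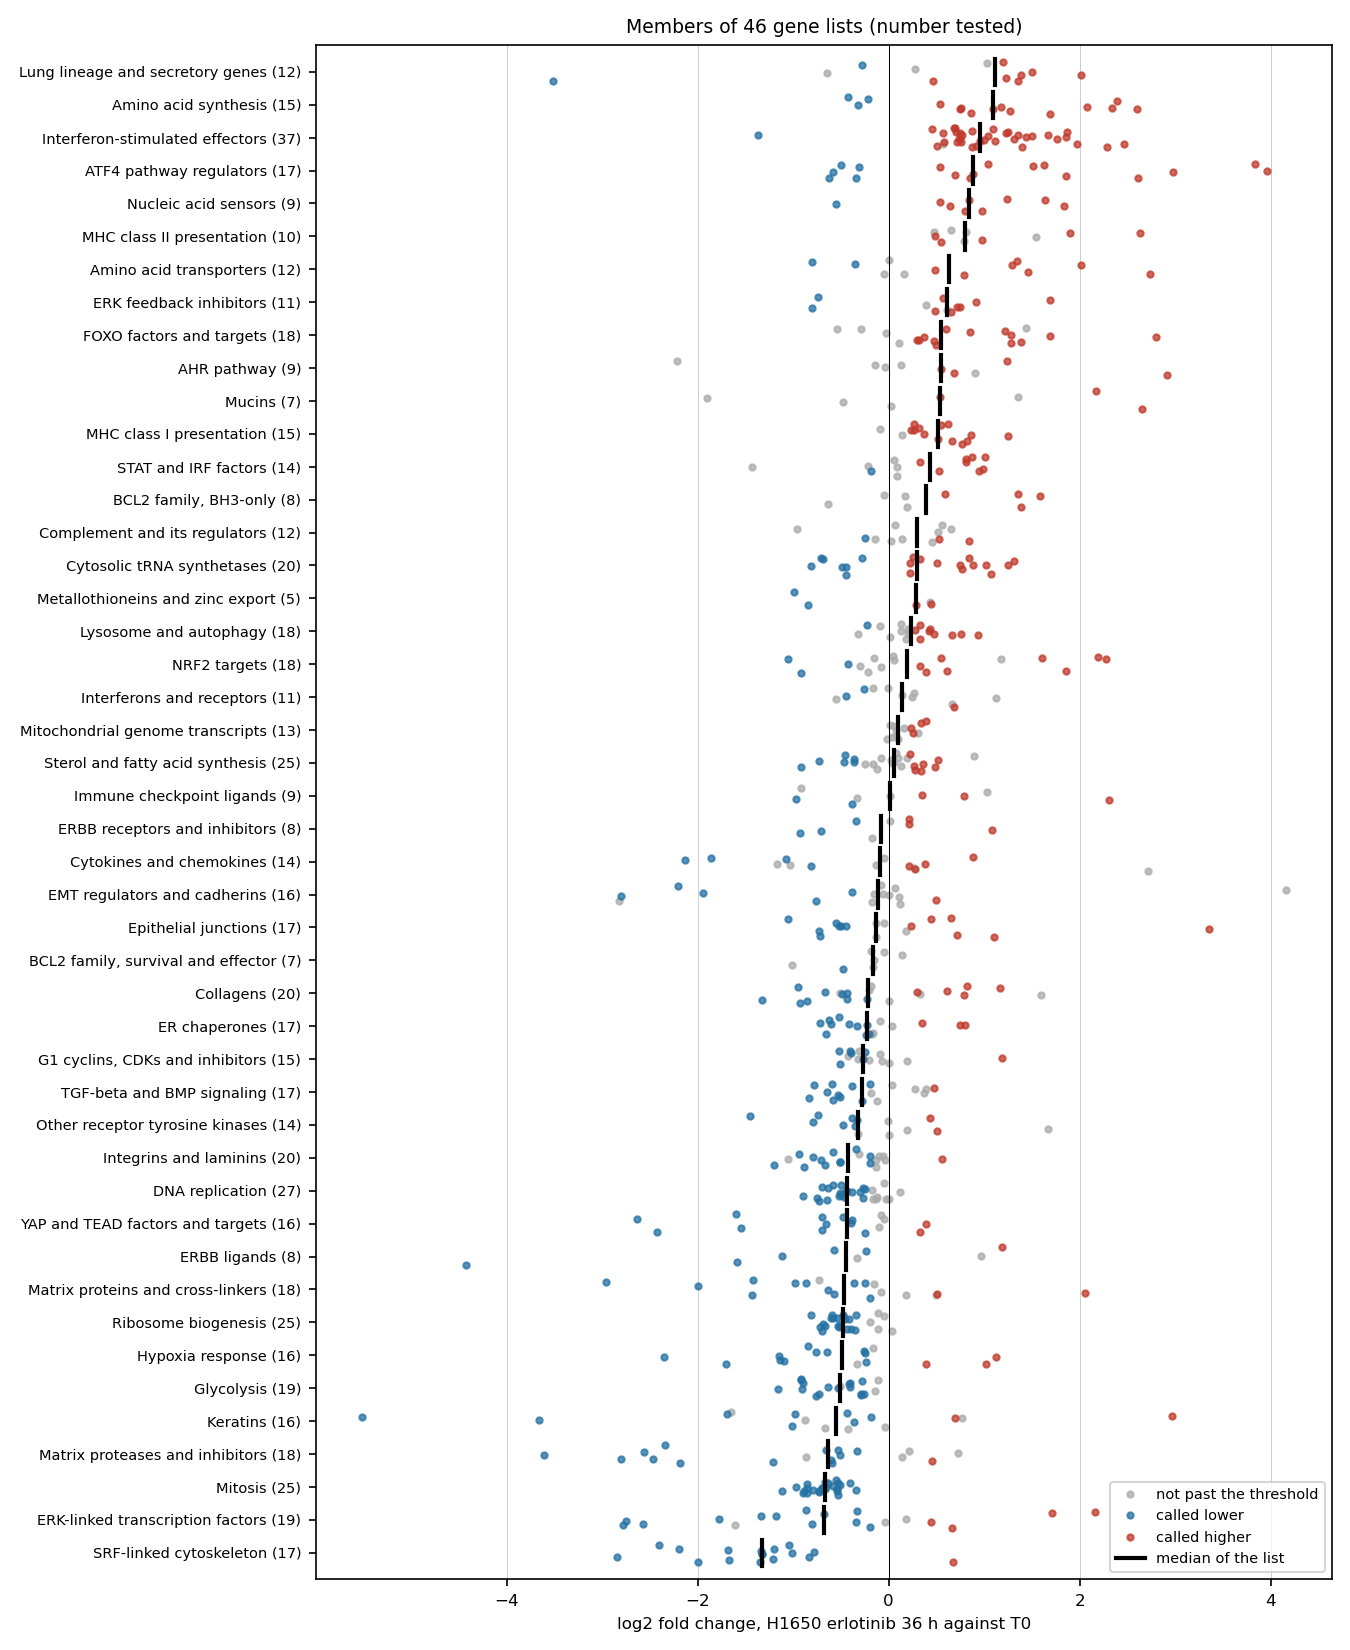
Log2 fold change in H1650 erlotinib against T0 of each tested member of the gene lists by role, colored by call. A bar marks the median of each list, and the number tested stands beside its name. Interferon-stimulated effectors and amino acid synthesis lie on the higher side, and the SRF-linked cytoskeleton, mitosis, ribosome biogenesis and glycolysis lie on the lower side, while the median over all genes tested is 0.01.

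The 5 largest falls in absolute level were in ACTB, ACTG1, the actin crosslinker FLNA and the glycolytic enzymes GAPDH and PKM, which are described with their groups. ACTB, the main cytoplasmic actin (chr7:5527147-5563784, minus strand, GRCh38), read 12739 and 12128 CPM at T0, and 3789 and 4041 CPM with erlotinib (log2 fold change -1.67 ± 0.07, adjusted p = 1.3e-16). ACTG1, the second cytoplasmic actin (chr17:81509971-81523847, minus strand), read 5258 and 4858 CPM and 1327 and 1379.7 CPM, a 3.74-fold fall. The erlotinib libraries of both actins lay below the T0 libraries without overlap.

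In the list of cytoskeletal genes linked to SRF, 1 of 17 tested members rose and 16 fell, with a median log2 fold change of -1.33. TPM1, a tropomyosin that winds along actin filaments, read 1620.4 and 1721 CPM at T0 and 393 and 447 CPM with erlotinib (log2 fold change -1.99 ± 0.07, adjusted p = 1.1e-17). MYL9, a myosin regulatory light chain, went from 1157 and 1038 CPM to 325 and 364 CPM, and FLNA, the filament crosslinker filamin A, from 3165 and 2844 CPM to 867 and 1004 CPM. The erlotinib libraries of these 3 genes lay below the T0 libraries without overlap. VCL and ZYX, proteins of focal adhesions, both changed by -1.33 on the log2 scale, and the nonmuscle myosin MYH9 by -1.21. The crosslinker ACTN1 changed by -1.01, and SRF itself read 95.1 and 81.1 CPM at T0 and 50.4 and 51.6 CPM with erlotinib. The smooth muscle members ACTG2, ACTA2 and CNN1 were under 3 CPM in all 4 libraries and were also called lower. TAGLN, an actin-binding protein, was the exception, and rose from 4.20 and 6.41 CPM to 9.29 and 7.87 CPM (log2 fold change 0.68 ± 0.17, adjusted p = 0.00247). CNN1 was no longer called without erlotinib replicate 1 (adjusted p = 0.0875). TAGLN was no longer called without T0 replicate 1 (adjusted p = 0.0964).

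Most members of the YAP and TEAD list were lower. There, 2 of 16 tested members rose and 11 fell, with a median log2 fold change of -0.44. CCN1, a secreted matricellular protein, read 1099.8 and 1039 CPM at T0 and 199 and 199 CPM with erlotinib (log2 fold change -2.43 ± 0.07, adjusted p = 1.5e-19). CCN2, its close relative, read 263 and 261 CPM and 44.3 and 39.9 CPM, a 6.23-fold fall (adjusted p = 1.7e-18). F3, the tissue factor that starts coagulation, went from 119 and 124 CPM to 41.5 and 38.7 CPM, and ANKRD1, a muscle ankyrin repeat protein, from 7.51 and 7.60 CPM to 2.94 and 2.23 CPM. These 4 targets were lower in both erlotinib libraries than in either T0 library. The coactivator YAP1 itself read 287 and 288 CPM at T0 and 265 and 291 CPM with erlotinib and was not called, whereas its paralog WWTR1 and the factor TEAD3 rose by 0.33 and 0.39 on the log2 scale. TEAD1 and TEAD4 were called lower, at -0.39 and -0.69, and the targets AMOTL1 and NT5E were, like YAP1, not called.

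The CCN2 promoter is shown because it carries 3 copies of the TEAD site GGAATG, capitalized here. It spans chr6:131951323-131951622 on the minus strand of GRCh38.p14 and runs from 250 bases before to 50 bases after the start site given by RefSeq, and it was chosen after the values were seen.
CCN2: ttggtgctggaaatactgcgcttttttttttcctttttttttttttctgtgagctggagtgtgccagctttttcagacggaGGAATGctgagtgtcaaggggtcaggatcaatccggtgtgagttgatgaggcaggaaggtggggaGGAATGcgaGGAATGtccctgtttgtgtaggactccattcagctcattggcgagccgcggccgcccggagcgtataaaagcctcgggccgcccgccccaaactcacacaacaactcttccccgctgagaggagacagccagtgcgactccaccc
The copies begin 169 to 95 bases before the start site. Searched on both strands, GGAATG occurred in 6 of 16 promoters of the YAP and TEAD list (37.5%) and in 14% of all 35116 RefSeq promoters of that length. A match of letters is a description and not a shown binding site.

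**Figure D3:**
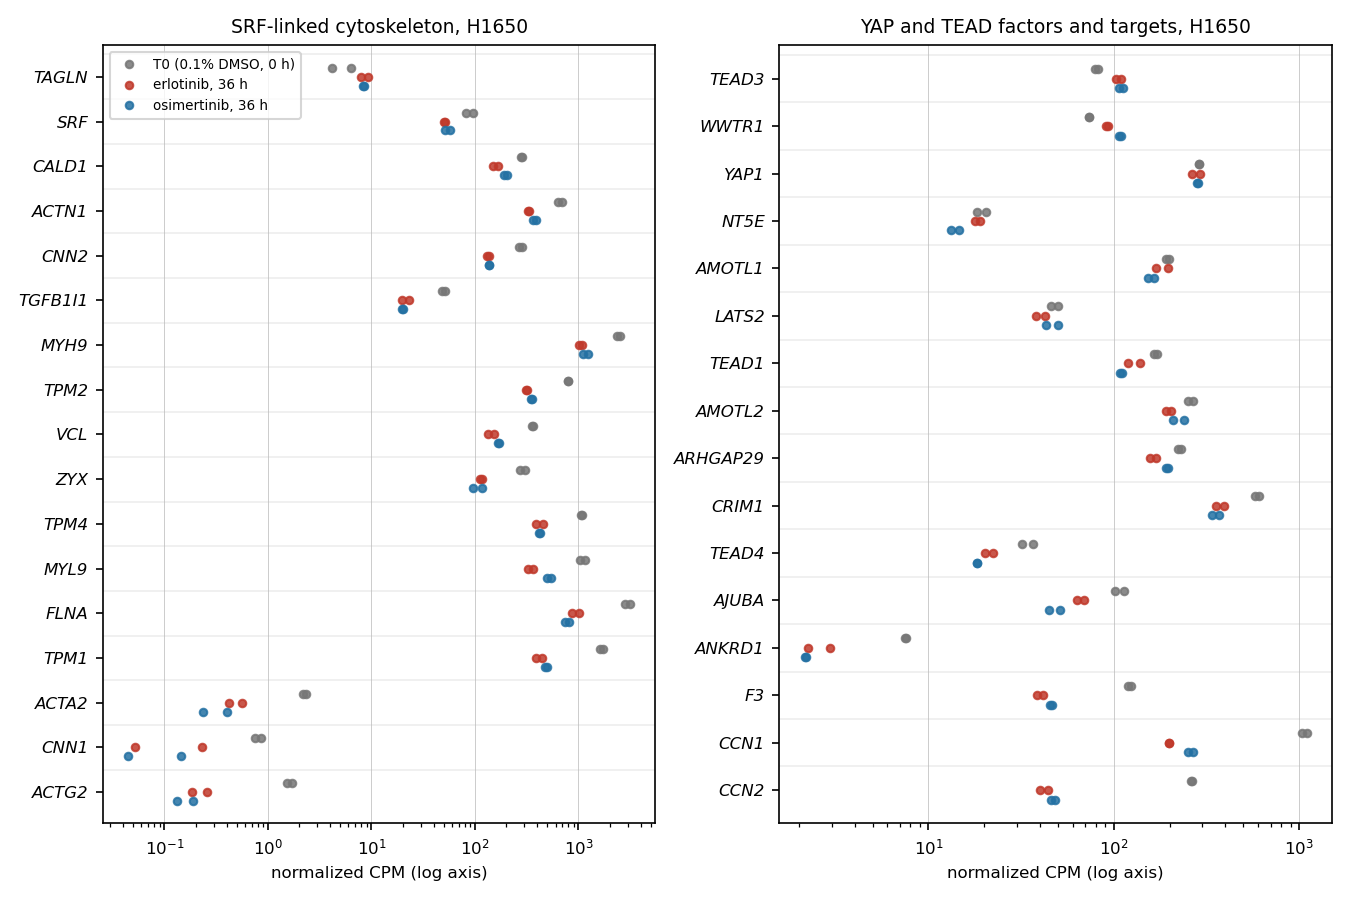
Normalized CPM on a log axis of the SRF-linked cytoskeleton list and of the YAP and TEAD list, 1 point per library for T0, erlotinib and osimertinib in H1650. Most T0 points lie above the erlotinib points, TAGLN lies the other way, and the osimertinib points lie close to the erlotinib points.

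Matrix genes fell with the cytoskeleton. Of the matrix proteins and cross-linkers, 2 of 18 tested members rose and 11 fell (median log2 fold change -0.47). THBS1, a matricellular glycoprotein (chr15:39581079-39599466, plus strand, GRCh38), read 1496 and 1476 CPM at T0 and 344 and 401 CPM with erlotinib (log2 fold change -2.00 ± 0.07, adjusted p = 1.5e-17). TNC, the matrix protein tenascin-C, went from 632 and 599.8 CPM to 219 and 242 CPM, and PLOD2, a collagen lysyl hydroxylase, from 683 and 709 CPM to 251 and 266 CPM. Each of the 3 was lower in both erlotinib libraries. Fibronectin, FN1, changed by -0.98 on the log2 scale, TGFBI, an integrin-binding matrix protein, by -0.86, and the cross-linking enzymes LOX and LOXL2 by -0.64 and -0.58. TGM2, a transglutaminase, went the other way, from 367 and 367 CPM to 527 and 514 CPM, and BGN, a small proteoglycan, rose from 0.980 and 0.386 CPM to 3.35 and 2.23 CPM, for a log2 fold change of 2.05, or 2.83 without T0 replicate 1.

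Receptors and proteases of the matrix followed. Among integrins and laminins, 1 of 20 tested members rose and 12 fell (median -0.42). The laminin chains LAMA3 and LAMB3 of the basement membrane changed by -0.94 and -0.79 on the log2 scale. ITGB6, the integrin chain that activates latent TGF-beta, read 32.0 and 33.5 CPM at T0 and 14.2 and 14.2 CPM with erlotinib. LAMB2 was the member called higher, by 0.56. Among matrix proteases and their inhibitors, 1 of 18 tested members rose and 13 fell (median -0.64). SERPINE2, a secreted protease inhibitor, read 66.7 and 63.0 CPM and 15.02 and 13.6 CPM (log2 fold change -2.18 ± 0.09, adjusted p = 9.8e-17). The gelatinase MMP9 went from 3.96 and 3.32 CPM to 0.774 and 0.652 CPM. The gelatinase MMP2 and the membrane protease MMP14 changed by -0.60 and -0.53 on the log2 scale, while the inhibitor TIMP2 rose from 432 and 416 CPM to 561 and 598 CPM. MMP1, MMP7 and MMP10 were called lower at under 1 CPM in every library. MMP1 was no longer called without erlotinib replicate 1 or T0 replicate 1 (adjusted p = 0.109 and 0.0526). MMP7 was no longer called without erlotinib replicate 2 (adjusted p = 0.173). MMP10 was no longer called without erlotinib replicate 2 or T0 replicate 2 (adjusted p = 0.239 and 0.202).

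Collagens were mixed. Of 20 tested, 9 fell and 5 rose, with a median log2 fold change of -0.22, or -0.23 without COL6A3, which had no reads in the 4 libraries. The basement membrane chain COL4A1 went from 219 and 199 CPM to 81.2 and 85.8 CPM. Its partner COL4A2 went from 365 and 335 CPM to 187 and 181 CPM. The related chains COL4A4 and COL4A5 moved the other way and rose by 0.82 and 0.79 on the log2 scale. COL5A2, a fibrillar chain, rose from 3.78 and 4.17 CPM to 8.36 and 9.54 CPM, while its partner COL5A1 changed by -0.43 and COL17A1, the hemidesmosome collagen, by -0.49.

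The keratins KRT6A, KRT6B and KRT16, which are made in wounded and stratified epithelium, were lower. KRT6A (chr12:52487174-52493257, minus strand, GRCh38) read 22.3 and 23.0 CPM at T0 and 1.19 and 2.33 CPM with erlotinib, a 12.7-fold fall (log2 fold change -3.66 ± 0.16, adjusted p = 1.8e-16). KRT6B, its near-identical neighbor (chr12:52446651-52452126, minus strand), went from 11.9 and 13.2 CPM to 0.155 and 0.372 CPM, and their partner KRT16 from 176 and 171 CPM to 51.0 and 56.0 CPM. Without erlotinib replicate 2 the log2 fold change of KRT6A was -4.26 and that of KRT6B was -6.30. Reads of KRT6A and KRT6B may have been split between the pair, so their separate values are uncertain. In all, 2 of 16 tested members rose and 8 fell (median -0.55). The simple epithelial keratins moved less, with KRT7, KRT8, KRT18 and KRT19 at -1.01, -0.44, -0.19 and -0.37 on the log2 scale. KRT15, a keratin of basal cells, rose from 22.7 and 26.7 CPM to 42.0 and 38.3 CPM. KRT4, a keratin of stratified mucosa, read 0.420 and 0.0386 CPM and 1.29 and 2.10 CPM and was called higher, with a log2 fold change of 2.97, or 2.01 without T0 replicate 2, which alone held too few reads for a fold. KRT18 was no longer called without any 1 of the 4 libraries (adjusted p from 0.0879 to 0.121).

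Among regulators and markers of epithelial to mesenchymal transition, 1 of 16 tested members rose and 5 fell, and 10 were not called (median -0.12, or -0.15 without ZEB2, which had no reads at T0). The intermediate filament VIM read 45.7 and 44.9 CPM at T0 and 9.29 and 10.3 CPM with erlotinib (log2 fold change -2.20 ± 0.13, adjusted p = 1.3e-13), and N-cadherin, CDH2, read 1.17 and 1.31 CPM and 0.464 and 0.186 CPM, for a log2 fold change of -1.95, or -2.70 without erlotinib replicate 1. E-cadherin, CDH1, read 1209.6 and 1214 CPM and 1026 and 1125 CPM and was not called, although it was without erlotinib replicate 2 (adjusted p = 0.0285). P-cadherin, CDH3, went from 983 and 977 CPM to 584 and 575 CPM. GRHL1, a factor of epithelial differentiation, was the member called higher, at 0.50. In the TGF-beta and BMP list, 1 of 17 tested members rose and 10 fell (median -0.28), or 5 without erlotinib replicate 2. The target ID3, an inhibitor of helix-loop-helix factors, read 254 and 226 CPM at T0 and 137 and 133 CPM with erlotinib, the ligand TGFB2 changed by -0.58 on the log2 scale and the inhibitory SMAD7 by -0.60. The ligand BMP7 was the member that rose, from 98.7 and 87.0 CPM to 134 and 123 CPM. GRHL1 was no longer called without erlotinib replicate 2 (adjusted p = 0.0623).

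In the list of epithelial junction genes 6 of 17 tested members rose and 7 fell (median -0.13). The desmosomal genes DSG2, DSP, PKP2 and PKP3 changed by -1.05, -0.50, -0.73 and -0.44 on the log2 scale. The tight junction genes CLDN4, CLDN7 and TJP3 rose by 0.65, 0.44 and 1.10, whereas CLDN1, TJP1 and CGN, of the same structure, were called lower. PKP3 was no longer called without T0 replicate 1 (adjusted p = 0.0564).

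ERBB ligands were mostly lower. Of 8 tested, 5 fell and 1 rose (median log2 fold change -0.45). EGF (chr4:109912884-110012266, plus strand, GRCh38) read 10.1 and 12.2 CPM at T0 and 0.568 and 0.466 CPM with erlotinib, a 21.6-fold fall (log2 fold change -4.43 ± 0.24, adjusted p = 4.1e-14). NRG1, a ligand of ERBB receptors, went from 30.3 and 30.0 CPM to 10.4 and 9.59 CPM, HBEGF from 22.6 and 19.0 CPM to 9.44 and 9.73 CPM and TGFA from 162 and 166 CPM to 108 and 113 CPM. The 4 ligands were lower in both erlotinib libraries than in either T0 library. EPGN was also called lower, at -0.24 on the log2 scale, and BTC rose, from 0.653 and 0.849 CPM to 1.65 and 1.82 CPM. AREG read 2.89 and 3.05 CPM and 3.04 and 1.72 CPM and was not called, with the libraries of the groups overlapping. In the list of ERBB receptors and inhibitors 3 of 8 tested members rose and 3 fell (median -0.08), and the feedback inhibitor ERRFI1 read 165 and 180.2 CPM at T0 and 204 and 195 CPM with erlotinib (log2 fold change 0.21 ± 0.07, adjusted p = 0.0245). The rises numbered 2 without either T0 library and 1 without either erlotinib library. SOCS2 and SOCS3, inhibitors of cytokine receptor signaling, changed by -0.93 and -0.71 on the log2 scale. EPGN was no longer called without erlotinib replicate 1, T0 replicate 1 or T0 replicate 2 (adjusted p from 0.0584 to 0.372). ERRFI1 was no longer called without erlotinib replicate 1, erlotinib replicate 2 or T0 replicate 1 (adjusted p from 0.0503 to 0.283).

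Most feedback inhibitors of ERK signaling did not fall in H1650 with erlotinib, although their summed level did. It was 406 and 369 CPM at T0 and 328 and 338 CPM with erlotinib. Of 11 tested, 7 rose and 2 fell, with a median log2 fold change of 0.61. SPRY1, a Sprouty inhibitor of receptor signaling, read 4.29 and 3.59 CPM at T0 and 15.02 and 10.4 CPM with erlotinib (log2 fold change 1.69 ± 0.20, adjusted p = 9.2e-08). SPRED2, a related inhibitor, read 39.0 and 41.0 CPM and 69.7 and 64.8 CPM, and the phosphatase DUSP4 read 8.44 and 8.10 CPM and 12.6 and 13.5 CPM. All 3 were higher in both erlotinib libraries than in either T0 library. SPRY2, SPRY4, SPRED1 and SPRED3 were the other members called higher, and DUSP1 and DUSP5 were called lower, at -0.81 and -0.74 on the log2 scale. DUSP6, the phosphatase most specific for ERK, read 1.54 and 1.97 CPM and 2.17 and 3.21 CPM and was not called, although it was without erlotinib replicate 1 (adjusted p = 0.0389). SPRED3 was no longer called without erlotinib replicate 1, erlotinib replicate 2 or T0 replicate 1 (adjusted p from 0.0521 to 0.214). With osimertinib in H1650, 2 members of the list were called higher and 4 lower against T0, with a median log2 fold change of -0.24. Over all 19108 genes, 3392 were called higher and 3424 lower with osimertinib.

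Transcription factors downstream of ERK moved in both directions, with 4 of 19 tested higher and 12 lower (median -0.68). EGR1, an immediate early zinc finger factor (chr5:138465490-138469315, plus strand, GRCh38), read 492 and 438 CPM at T0 and 73.0 and 83.3 CPM with erlotinib, a 5.95-fold fall (log2 fold change -2.57 ± 0.10, adjusted p = 2.8e-17). Of the AP-1 subunits, FOSL1 went from 25.4 and 25.8 CPM to 3.92 and 3.68 CPM and JUN from 268 and 206 CPM to 74.3 and 63.9 CPM. Falls were also called for FOS (-0.80 on the log2 scale), FOSB (-1.18), JUNB (-0.68), IER2 (-0.86) and IER3 (-1.33), and a smaller fall for MYC (-0.34). The ETS factors ETV1 and ETV5 moved the other way. ETV1 read 10.9 and 13.5 CPM at T0 and 53.1 and 56.3 CPM with erlotinib (4.46-fold, adjusted p = 9.2e-14). ETV5 read 5.22 and 6.56 CPM and 19.2 and 19.6 CPM (3.28-fold). An exon of ETV5 overlaps DGKG on the same strand, so reads there could be assigned to either. ETV4, the remaining member of that ETS subfamily, read 4.66 and 4.01 CPM and 5.26 and 4.56 CPM and was not called. JUND, an AP-1 subunit, and PHLDA1, a pleckstrin homology protein, were the other members called higher. MYC was no longer called without T0 replicate 1 (adjusted p = 0.0766). JUND was no longer called without T0 replicate 2 (adjusted p = 0.0566).

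The erlotinib change was tested for a difference between H1650 and PC9, for which T0 and erlotinib groups carry the same labels. It differed for 7802 of 19108 genes (40.8%), and 840 genes were called in opposite directions in the lines, 376 of them higher in H1650 and lower in PC9. All 11 feedback inhibitors of ERK were called for this difference, 9 of them above and 2 below (1 below without T0 replicate 1 of H1650), and in PC9 alone 9 of them fell. Over all 19108 genes, 6244 were called higher and 5568 lower in PC9, against which the PC9 counts of the lists can be read. SPRED2 read 64.6 and 68.1 CPM in PC9 at T0 and 3.72 and 4.14 CPM in PC9 with erlotinib, against the rise in H1650 (log2 difference of the changes 4.82 ± 0.15, adjusted p = 1.5e-19). SPRY4 went from 22.1 and 25.8 CPM to 0.0896 and 0.0390 CPM in PC9 and from 4.62 and 5.44 CPM to 9.65 and 9.40 CPM in H1650. The lines moved in opposite directions for both genes. ETV5 had the highest difference among those of the 840 genes that averaged at least 10 CPM in the 4 libraries of each line. It read 62.1 and 63.5 CPM and 1.25 and 0.625 CPM in PC9 (log2 difference 7.80 ± 0.24, adjusted p = 1.5e-19). ETV1 read 4.29 and 5.73 CPM and 0.269 and 0.156 CPM. DUSP6, not called in H1650, fell from 13.6 and 12.04 CPM to 0.314 and 0.312 CPM in PC9 (log2 difference 5.94 ± 0.44, adjusted p = 5.8e-12).

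TGM2, TRIB2, a pseudokinase, and SLCO4A1, an organic anion transporter, were the next in that ranking to be higher in H1650 and lower in PC9, with log2 differences of 7.14, 5.65 and 5.05. Under the same minimum of 10 CPM in each line, the opposite pattern was led by GASK1B, a secretory pathway protein, MYL9, KANK4, an adaptor at adhesions, ATF3, a stress-induced factor, and KRT16, with log2 differences from -4.84 to -4.17. MYL9 read 5.09 and 4.39 CPM in PC9 at T0 and 39.3 and 31.1 CPM in PC9 with erlotinib. In the SRF-linked list as a whole 16 of 17 members were called for the difference, all below, and in PC9 8 members rose and 6 fell. For ACTG1 the log2 fold change was -1.90 in H1650 and 0.41 in PC9 (log2 difference -2.32 ± 0.10, adjusted p = 2.7e-17). EGF read 11.5 and 10.7 CPM and 10.4 and 11.5 CPM in PC9, and the difference between the lines was -4.41 on the log2 scale.

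**Figure D4:**
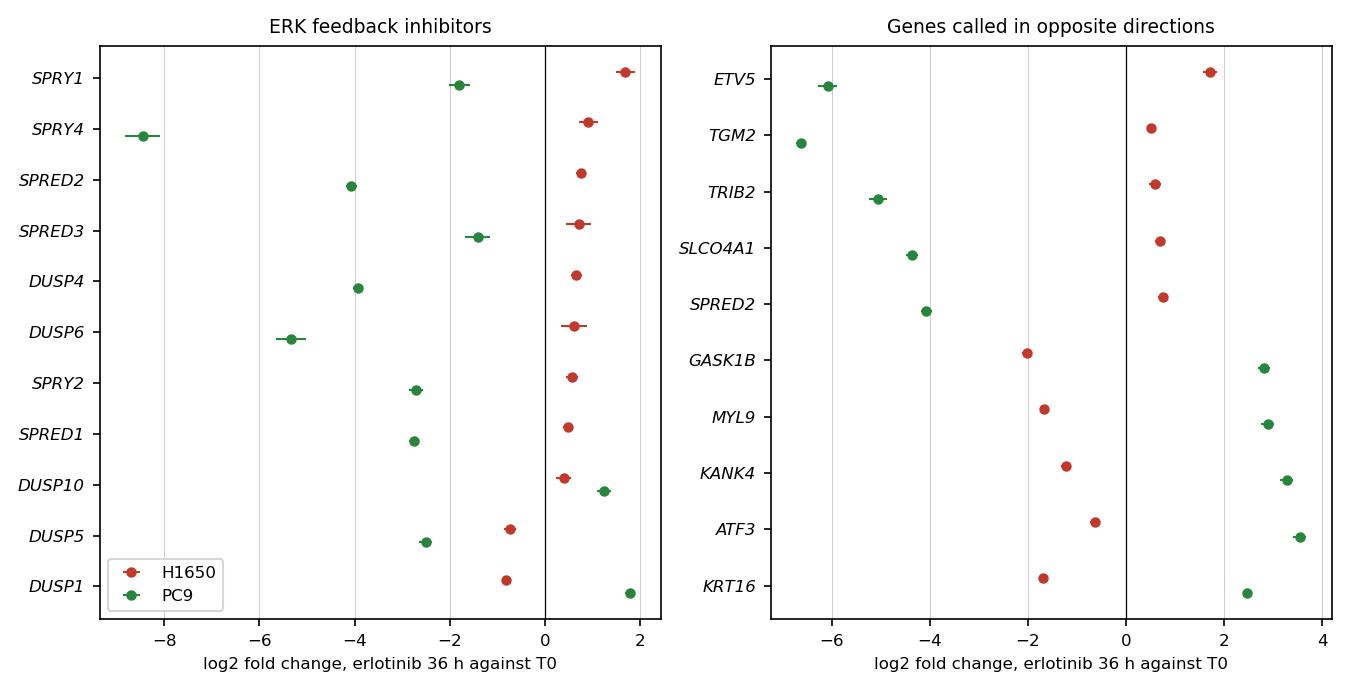
Log2 fold change of erlotinib against T0 with its SE in H1650 and in PC9, for the ERK feedback inhibitors and for the 10 genes with the largest differences among those called in opposite directions that averaged at least 10 CPM in each line. The H1650 points of SPRY4, SPRED2 and ETV5 lie above 0 and the PC9 points below, while MYL9, KRT16 and ATF3 show the reverse.

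The regulators of the ATF4 response rose in part. Of 17 tested, 12 were higher and 5 lower (median log2 fold change 0.89). ATF4 itself read 207 and 208 CPM at T0 and 430.2 and 423 CPM with erlotinib (log2 fold change 1.04 ± 0.07, adjusted p = 1.3e-12). TRIB3, a pseudokinase and ATF4 target, went from 51.0 and 44.5 CPM to 175 and 169.5 CPM, SESN2, an inhibitor of mTORC1, from 18.5 and 19.7 CPM to 57.6 and 60.2 CPM, and CHAC1, which degrades glutathione, from 7.23 and 5.94 CPM to 40.6 and 39.7 CPM. Each was higher in both erlotinib libraries. Of the kinases that can start the response, this list held EIF2AK3 and EIF2AK4, which were called lower. Another such kinase, EIF2AK2, belongs to the list of nucleic acid sensors, in which every tested member but CGAS rose. ATF3, ATF5 and PPP1R15A, the phosphatase subunit that ends the response, were also called lower. DDIT3, the factor CHOP, read 5.60 and 6.44 CPM and 7.95 and 9.50 CPM, and CEBPB and CEBPG, partners of ATF4, rose by 0.85 and 0.89 on the log2 scale. EIF2AK3 was no longer called without any 1 of the 4 libraries (adjusted p from 0.0542 to 0.0673). PPP1R15A was no longer called without T0 replicate 1 (adjusted p = 0.0622). DDIT3 was no longer called without erlotinib replicate 2 or T0 replicate 1 (adjusted p = 0.199 and 0.131).

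Enzymes of amino acid synthesis formed the group with the highest median among the lists with 15 or more tested members, 1.10 on the log2 scale, with 12 of 15 higher and 3 lower. The serine pathway moved at each of its steps. PHGDH, its entry enzyme, read 105 and 101 CPM at T0 and 437 and 431 CPM with erlotinib. PSAT1, the aminotransferase (chr9:78297143-78330093, plus strand, GRCh38), read 90.4 and 89.3 CPM and 541 and 553 CPM (log2 fold change 2.61 ± 0.07, adjusted p = 9.3e-20). PSPH, the phosphatase, read 33.2 and 33.8 CPM and 67.5 and 75.7 CPM. The erlotinib libraries lay above the T0 libraries for all 3. In mitochondrial folate metabolism, SHMT2, MTHFD2 and ALDH1L2 rose by 0.76, 0.86 and 2.39 on the log2 scale, whereas MTHFD1L and the cytosolic MTHFD1 were called lower, at -0.32 and -0.43. GPT2, which makes alanine, read 82.0 and 75.8 CPM and 256 and 251 CPM. ASNS, asparagine synthetase, read 2.05 and 1.85 CPM and 10.3 and 9.54 CPM, but a gene overlapping it on the same strand may have taken part of its reads, so its level is uncertain. CBS and CTH, enzymes of cysteine synthesis, rose by 1.27 and 1.18. MTHFD1L was no longer called without T0 replicate 1 (adjusted p = 0.0582).

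Carriers of amino acids and the enzymes that charge tRNA rose in part. Among amino acid transporters, 7 of 12 tested members rose and 2 fell (median 0.64). SLC7A11, the cystine importer, read 29.8 and 31.7 CPM at T0 and 68.7 and 82.0 CPM with erlotinib, SLC1A5, the glutamine importer, 255 and 245 CPM and 645 and 621 CPM, and SLC6A9, a glycine transporter, 28.1 and 22.3 CPM and 100.5 and 103 CPM. SLC7A5 and SLC3A2, which form the carrier of large neutral amino acids, were not called. SLC7A5 read 1017 and 884 CPM at T0 and 893 and 945 CPM with erlotinib. Among cytosolic tRNA synthetases 13 of 20 rose and 7 fell (median 0.29). WARS1, CARS1, GARS1, MARS1, AARS1 and YARS1, named for the amino acids tryptophan, cysteine, glycine, methionine, alanine and tyrosine, had log2 fold changes from 0.84 to 1.31. Among those that fell were the enzymes of valine, phenylalanine, lysine, histidine and arginine, VARS1, FARSA, FARSB, KARS1, HARS1 and RARS1, with log2 fold changes from -0.81 to -0.28. RARS1 was no longer called without erlotinib replicate 1 or T0 replicate 2 (adjusted p = 0.0942 and 0.0892).

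The erlotinib and osimertinib libraries of H1650, both taken at 36 h, were compared directly. Of 19108 genes, 1672 (8.75%) differed, 713 of them higher and 959 lower with erlotinib, and 183 differed by more than 2-fold. The number called was 782 without replicate 1 of osimertinib, 1093 without replicate 1 of erlotinib and 1045 without replicate 2 of erlotinib. The ATF4-linked lists stood on the erlotinib side, with 9 of 17 regulators, 11 of 15 enzymes of amino acid synthesis, 9 of 12 transporters and 12 of 20 tRNA synthetases called above osimertinib. Against these, 1 regulator, 1 enzyme, 3 synthetases and 0 transporters were called below. No synthetase was called below without erlotinib replicate 1 or osimertinib replicate 2, and 1 was without osimertinib replicate 1. The enzyme was lost without erlotinib replicate 1 or osimertinib replicate 1, and 2 regulators were called below without erlotinib replicate 2. PSAT1 read 108 and 101 CPM with osimertinib against 541 and 553 CPM with erlotinib (log2 difference 2.38 ± 0.07, adjusted p = 7.4e-19). CHAC1 read 6.40 and 8.55 CPM with osimertinib, close to its T0 level, and the difference was 2.42 on the log2 scale (adjusted p = 8.7e-12). SLC7A5 read 454 and 384 CPM with osimertinib, below both T0 and erlotinib. SLC7A11 read 21.9 and 21.5 CPM. GDF15, ADM2 and ALDH1L2 differed by 2.21, 2.51 and 1.91. STC2, a secreted glycoprotein, read 97.5 and 99.2 CPM at T0, 245 and 246 CPM with erlotinib and 65.1 and 66.6 CPM with osimertinib. ETV5 read 5.11 and 4.59 CPM with osimertinib, near its T0 level (log2 difference 2.00 ± 0.15, adjusted p = 2.2e-10).

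**Figure D5:**
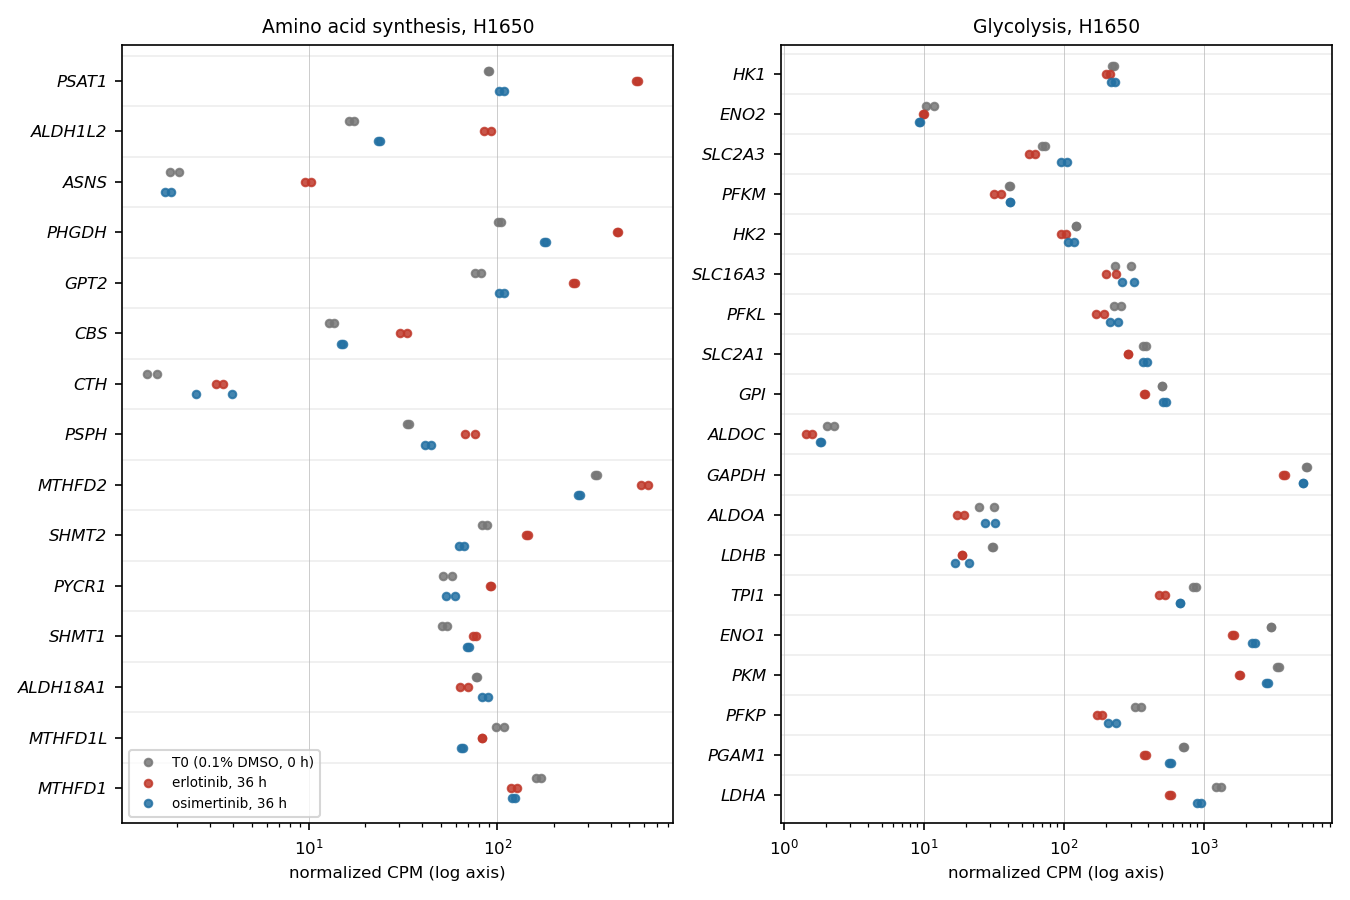
Normalized CPM on a log axis of the enzymes of amino acid synthesis and of glycolysis in H1650, 1 point per library for T0, erlotinib and osimertinib. The erlotinib points of PSAT1, PHGDH and ALDH1L2 lie above both other groups, and those of LDHA, PGAM1 and PKM lie below both.

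The promoter of CHAC1 is shown because it holds the core of the composite element bound by C/EBP and ATF factors, TGATGNAA, here on the opposite strand and capitalized. It lies at chr15:40953221-40953520 on the plus strand of GRCh38.p14, and it was chosen after the values were seen.
CHAC1: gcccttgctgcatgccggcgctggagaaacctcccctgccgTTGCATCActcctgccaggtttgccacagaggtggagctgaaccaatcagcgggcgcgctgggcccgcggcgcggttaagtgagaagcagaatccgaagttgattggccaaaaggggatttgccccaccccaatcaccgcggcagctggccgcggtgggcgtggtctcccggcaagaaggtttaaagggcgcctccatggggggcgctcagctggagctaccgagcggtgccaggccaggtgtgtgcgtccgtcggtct
The element begins 209 bases before the start site given by RefSeq. It occurred on either strand in 4 of 25 promoters of the ATF4 regulators (16%), 4 of 16 of amino acid synthesis (25.0%) and 5 of 19 of the transporters (26.3%), and in 3.62% of all promoters of the same length. These promoters cover 16, 10 and 11 genes of the lists.

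Chaperones of the endoplasmic reticulum and genes that build ribosomes were mostly lower. Of the chaperones and related genes, 3 of 17 tested members rose and 10 fell (median -0.23). The falls numbered 6 without erlotinib replicate 1 or T0 replicate 2. CALR, the chaperone calreticulin, read 1124 and 1158 CPM at T0 and 722 and 756 CPM with erlotinib (log2 fold change -0.63 ± 0.07, adjusted p = 1.1e-07), and 1515 and 1424 CPM with osimertinib. HSPA5, the chaperone BiP, changed by -0.20 on the log2 scale. XBP1, HERPUD1 and DNAJB9 were the 3 called higher. In ribosome biogenesis 0 of 25 tested members rose and 20 fell (median -0.48). The nucleolar protein NPM1 went from 1452 and 1593 CPM to 814 and 913 CPM, and its neighbor in the nucleolus NCL went from 952 and 1021 CPM to 569.8 and 644 CPM. NOP56, FBL and UTP20, which guide or carry out the modification and trimming of ribosomal RNA, changed by -0.72, -0.67 and -0.69 on the log2 scale. HSPA5 was no longer called without erlotinib replicate 1, T0 replicate 1 or T0 replicate 2 (adjusted p from 0.0575 to 0.206). DNAJB9 was no longer called without erlotinib replicate 1, erlotinib replicate 2 or T0 replicate 2 (adjusted p from 0.0546 to 0.191).

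Glycolysis fell at most of its steps. Of 19 tested members 16 were lower and 0 were higher (median log2 fold change -0.51), against 18.5% lower over all genes. LDHA, which makes lactate, read 1234 and 1331 CPM at T0 and 565 and 579.8 CPM with erlotinib (log2 fold change -1.16 ± 0.07, adjusted p = 5e-13). PKM, the pyruvate kinase, read 3446 and 3326 CPM and 1807 and 1797 CPM. GAPDH read 5340.0 and 5460.2 CPM and 3695 and 3806 CPM. In all 3 the erlotinib libraries were lower without overlap. ENO1, PGAM1, TPI1 and the phosphofructokinase PFKP changed by -0.90, -0.92, -0.76 and -0.92 on the log2 scale, and the glucose importer SLC2A1 by -0.41. HK1, ENO2 and ALDOC were not called, and PGK1 was not analysed here. Against osimertinib, 14 of 19 were called lower and 0 higher with erlotinib, among them LDHA, which read 891 and 955 CPM with osimertinib (log2 difference -0.69 ± 0.07, adjusted p = 8e-08). ALDOA is uncertain, since a gene overlaps it on the same strand.

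Targets of hypoxia signaling moved with glycolysis, with 3 of 16 tested higher and 11 lower (median -0.49). CA9, the carbonic anhydrase, read 12.4 and 10.4 CPM at T0 and 2.17 and 2.28 CPM with erlotinib (log2 fold change -2.36 ± 0.25, adjusted p = 1.5e-08), and the peptide hormone ADM read 78.9 and 75.6 CPM and 23.3 and 24.2 CPM. The mitophagy receptor BNIP3 went from 144 and 148 CPM to 65.7 and 70.3 CPM and the prolyl hydroxylase P4HA1 from 137 and 151 CPM to 68.6 and 61.3 CPM. These 4 were lower in both erlotinib libraries. VEGFA, an angiogenic factor, rose from 101 and 108 CPM to 238 and 217 CPM, and MXI1 and NDRG1 rose too, by 1.01 and 0.39 on the log2 scale. Against osimertinib, 11 members were called lower with erlotinib and 1, VEGFA, higher, by 0.29 on the log2 scale. The difference of VEGFA was no longer called without erlotinib replicate 1, osimertinib replicate 1 or osimertinib replicate 2 (adjusted p = 0.166, 0.105 and 0.0779). BNIP3 read 133 and 129.6 CPM with osimertinib, CA9 8.88 and 6.77 CPM and PDK1, a kinase that turns pyruvate away from mitochondria, 41.8 and 42.0 CPM against 22.0 and 19.1 CPM with erlotinib. PFKFB4, which controls the rate of glycolysis and was not in the lists, read 28.6 and 27.2 CPM at T0, 14.5 and 13.5 CPM with erlotinib and 40.3 and 40.1 CPM with osimertinib. The hypoxia element core ACGTG occurred in 7 of 18 promoters of the hypoxia list (38.9%), in 15 of 42 of glycolysis (35.7%) and in 21.4% of all promoters.

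Sterol and fatty acid synthesis showed little net change against T0 but stood below osimertinib. Against T0, 7 of 25 tested members rose and 6 fell (median 0.06). Against osimertinib 19 of 25 were called lower with erlotinib and 0 higher. SCD, the stearoyl desaturase, read 734 and 749.7 CPM at T0, 771 and 812 CPM with erlotinib and 1530.3 and 1508 CPM with osimertinib (erlotinib against osimertinib, log2 difference -0.94 ± 0.07, adjusted p = 1.2e-10). FASN, fatty acid synthase, read 482 and 430.1, 521 and 479 and 867 and 797 CPM in the same order. The osimertinib libraries were the highest for both.

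Other genes below osimertinib had varied roles. CP, the copper-carrying ferroxidase ceruloplasmin, read 23.5 and 25.3 CPM at T0, 23.5 and 19.7 CPM with erlotinib and 73.5 and 64.8 CPM with osimertinib. MGP, an inhibitor of calcification, read 154 and 164, 63.8 and 69.3 and 156 and 168 CPM in that order, and COL3A1, a fibrillar collagen chain, 12.97 and 12.04, 7.07 and 6.75 and 19.9 and 19.6 CPM. For MGP the osimertinib libraries overlapped T0, and for CP the erlotinib libraries did. PPFIA4, a scaffold protein, CAPN14, a calpain protease, TMPRSS11E, a transmembrane serine protease, and MYH15 differed by -1.77, -1.41, -1.38 and -1.50 on the log2 scale.

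CYP1A1, the monooxygenase induced by the aryl hydrocarbon receptor, had the largest difference above osimertinib among genes of at least 10 CPM. It read 9.94 and 8.53 CPM at T0, 17.6 and 25.6 CPM with erlotinib and 2.34 and 1.96 CPM with osimertinib (erlotinib against osimertinib, log2 difference 3.33 ± 0.21, adjusted p = 9.2e-12). The erlotinib libraries were apart by more than the T0 libraries were, and both were above T0 (log2 fold change 1.24 ± 0.18, adjusted p = 2.7e-06). CYP1B1, a related enzyme, read 337 and 314, 452 and 501 and 257 and 251 CPM in the same order, and AHRR, the repressor of the receptor, 10.7 and 10.96, 11.1 and 12.5 and 5.92 and 4.68 CPM. Exons of CYP1B1 and of AHRR each overlap another gene on the same strand, so reads there could be assigned to either gene. The receptor AHR rose against T0, by 0.69 on the log2 scale. In all, 4 of 9 tested members rose and 0 fell (median 0.55, or 0.62 without UGT1A6, which had no reads with erlotinib).

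In the list of NRF2 targets, 8 of 18 tested members rose and 3 fell (median 0.19). NQO1, a quinone reductase, read 503 and 526 CPM at T0 and 726 and 783 CPM with erlotinib. ABCC3, an export pump, read 71.2 and 81.0 CPM and 247 and 216 CPM (log2 fold change 1.60 ± 0.09, adjusted p = 2.7e-14). HMOX1, heme oxygenase, fell from 90.4 and 86.2 CPM to 40.7 and 44.2 CPM. The oxidoreductases AKR1C1, AKR1C3 and AKR1B10 were called higher at under 3 CPM, and AKR1C1 and AKR1C3 are so alike in sequence that their separate values are uncertain. Of 5 metallothioneins and zinc exporters tested, 2 rose and 2 fell (median 0.29), with MT2A at 421 and 429 CPM and 244 and 229.5 CPM. Of the lysosome and autophagy genes, 9 of 18 tested members rose and 1 fell (median 0.24). The cathepsin CTSD read 105 and 89.1 CPM at T0 and 198 and 173 CPM with erlotinib, the cathepsin CTSH 83.0 and 81.1 CPM and 145 and 131 CPM, and GABARAPL1 and ULK1, of autophagosome formation, rose by 0.67 and 0.48 on the log2 scale. AKR1C3 was no longer called without erlotinib replicate 2 (adjusted p = 0.0785).

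Interferon-stimulated genes rose almost as a whole. Of 37 effectors tested, 35 were higher, 1 was lower and 1 was not called (median log2 fold change 0.95), against 18.0% higher over all genes. The promoters below hold the interferon response core GAAANNGAA, in capitals on either strand, and belong to the 2 effectors and the 2 MHC class I genes with the largest called rises among members that hold it and averaged at least 10 CPM. They are RefSeq promoters of GRCh38.p14, printed from 250 bases before to 50 bases after a start site, at chr1:78620198-78620497 (plus strand) for IFI44L, chr21:41431800-41432099 (plus strand, 1 of 3 start sites) for MX1, chr16:67936801-67937100 (minus strand) for PSMB10 and chr6:32843998-32844297 (minus strand, 1 of 2 start sites) for PSMB8.
IFI44L: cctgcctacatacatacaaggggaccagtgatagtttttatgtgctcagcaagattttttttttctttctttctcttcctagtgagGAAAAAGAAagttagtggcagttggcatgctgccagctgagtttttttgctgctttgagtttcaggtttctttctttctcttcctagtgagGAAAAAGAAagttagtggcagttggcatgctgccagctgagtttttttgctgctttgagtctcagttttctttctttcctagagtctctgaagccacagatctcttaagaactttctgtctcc
MX1: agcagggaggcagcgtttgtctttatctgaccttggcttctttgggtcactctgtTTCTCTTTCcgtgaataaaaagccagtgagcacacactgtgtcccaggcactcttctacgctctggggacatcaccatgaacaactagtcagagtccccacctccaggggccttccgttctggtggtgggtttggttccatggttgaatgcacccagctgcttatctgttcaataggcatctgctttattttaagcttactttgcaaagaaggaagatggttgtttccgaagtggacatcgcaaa
PSMB10: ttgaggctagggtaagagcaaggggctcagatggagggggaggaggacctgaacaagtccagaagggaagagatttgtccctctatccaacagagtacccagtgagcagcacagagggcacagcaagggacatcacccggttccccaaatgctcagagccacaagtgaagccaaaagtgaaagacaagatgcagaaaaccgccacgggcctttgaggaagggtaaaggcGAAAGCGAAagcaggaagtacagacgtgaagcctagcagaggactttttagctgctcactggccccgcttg
PSMB8: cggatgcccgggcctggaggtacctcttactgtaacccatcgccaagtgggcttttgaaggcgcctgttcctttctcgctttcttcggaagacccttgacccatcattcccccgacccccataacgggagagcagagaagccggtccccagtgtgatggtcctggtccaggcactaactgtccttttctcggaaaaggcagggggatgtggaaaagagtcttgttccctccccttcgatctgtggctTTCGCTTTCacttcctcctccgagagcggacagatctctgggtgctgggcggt
The core begins 164 and 73 bases before the start site in IFI44L, 195 before it in MX1, 21 before it in PSMB10 and 3 before it in PSMB8. It occurred in 31 of 41 promoters of the effectors (75.6%) and in 9 of 16 of the MHC class I list (56.2%), which cover 30 and 12 genes, and in 8.11% of all 35116 promoters.

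IFI44L, an interferon-induced protein (chr1:78619922-78646145, plus strand, GRCh38), read 28.1 and 24.5 CPM at T0 and 153 and 138 CPM with erlotinib, a 5.54-fold rise (log2 fold change 2.47 ± 0.10, adjusted p = 4.3e-17). MX1, a GTPase that blocks virus replication, read 235 and 202 CPM and 720.3 and 672 CPM. OAS2, which makes the activator of RNase L, read 75.4 and 62.1 CPM and 264 and 273 CPM. The erlotinib libraries were the higher pair in all 3. TRIM22, a ubiquitin ligase, went from 10.7 and 13.4 CPM to 61.9 and 56.9 CPM, and IFIT1 and IFIT3, which bind viral RNA, rose by 1.31 and 1.44 on the log2 scale. ISG15, a ubiquitin-like modifier, read 109.6 and 82.8 CPM and 199 and 186 CPM, and its protease USP18 rose by 0.87. GBP1, a guanylate-binding GTPase, was the member that fell, from 57.5 and 57.3 CPM to 21.9 and 22.6 CPM (log2 fold change -1.36 ± 0.11, adjusted p = 6e-11), while its relatives GBP2 and GBP3 rose by 0.46 and 0.75. MX2 read 0.466 and 0.424 CPM and 0.619 and 0.698 CPM and was not called. GBP2 was no longer called without erlotinib replicate 2 (adjusted p = 0.0648).

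STAT and IRF factors, which drive interferon-stimulated genes, had a lower median. Among them 8 of 14 tested members rose and 1 fell (median 0.43). STAT2 read 114 and 120.4 CPM at T0 and 231 and 234 CPM with erlotinib (log2 fold change 0.99 ± 0.07, adjusted p = 2.6e-11). IRF9 read 3.03 and 3.32 CPM and 5.99 and 6.29 CPM. Both were higher in both erlotinib libraries than in either T0 library. STAT3 was called lower, at -0.19 on the log2 scale. Of 9 nucleic acid sensors tested, 8 rose and 1 fell (median 0.84). STING1, the adaptor for cytosolic DNA, read 36.4 and 41.6 CPM at T0 and 122 and 122 CPM with erlotinib, and the RNA sensors DDX58 and IFIH1 rose by 1.24 and 0.84, whereas CGAS, the DNA sensor upstream of STING1, read 21.2 and 19.3 CPM and 14.9 and 12.8 CPM and was the member that fell. STAT3 was no longer called without erlotinib replicate 1, T0 replicate 1 or T0 replicate 2 (adjusted p from 0.0837 to 0.321).

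Interferon genes themselves stayed at or near the floor. IFNB1, IFNL2, IFNL3, IFNK and IFNG did not pass the filter on low counts. IFNL1 read 0.187 and 0.424 CPM at T0 and 0.722 and 0.652 CPM with erlotinib and IFNE read 0.653 and 0.270 CPM and 0.310 and 0.745 CPM, and neither was called. Of the receptors and their kinases, IFNLR1, a chain of the lambda interferon receptor, rose by 0.68 on the log2 scale, and IFNAR1 and JAK1 were called lower, at -0.26 and -0.44. IFNLR1 was no longer called without T0 replicate 2 (adjusted p = 0.0829). IFNAR1 was no longer called without erlotinib replicate 1 or T0 replicate 1 (adjusted p = 0.124 and 0.0635).

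MHC class I genes rose with the interferon genes. In that list 13 of 15 tested members rose and 0 fell (median 0.51). B2M, the common light chain, read 627 and 624 CPM at T0 and 879 and 907 CPM with erlotinib (log2 fold change 0.51 ± 0.07, adjusted p = 7.1e-07). HLA-E read 157 and 145 CPM and 248 and 233 CPM. PSMB10, a subunit of the immunoproteasome, read 13.4 and 11.2 CPM and 30.1 and 28.2 CPM. Each was higher in both erlotinib libraries. HLA-B and HLA-C rose by 0.23 and 0.37 on the log2 scale, and since paralogs of this class share sequence, their separate values are uncertain. NLRC5, the transactivator of the class, read 25.4 and 24.0 CPM and 45.3 and 44.0 CPM. The peptide transporter subunits TAP1 and TAP2 were not called, with log2 fold changes of 0.14 and -0.09. Of 10 class II genes tested 5 rose and 0 fell (median 0.80). With any 1 of the 4 libraries left out, 3 rose. CIITA, the transactivator of class II, read 1.03 and 1.35 CPM at T0 and 8.15 and 6.75 CPM with erlotinib. HLA-B was no longer called without erlotinib replicate 1 or T0 replicate 2 (adjusted p = 0.156 and 0.213).

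Against osimertinib, 14 of 37 effectors and 8 of 15 MHC class I genes were called lower with erlotinib and 0 were called higher. Without osimertinib replicate 1, 7 effectors and 0 MHC class I genes were called lower, and without erlotinib replicate 1 the class I count was 5. ISG15 read 325 and 275 CPM with osimertinib (erlotinib against osimertinib, log2 difference -0.64 ± 0.10, adjusted p = 4.8e-05), MX1 932 and 858 CPM and IFIT1 459 and 409.8 CPM, and the osimertinib libraries were the higher pair for all 3. B2M read 1128 and 1073 CPM with osimertinib and HLA-E 344 and 294 CPM. Without osimertinib replicate 1 the differences of MX1, B2M and HLA-E were no longer called (adjusted p = 0.0581, 0.0753 and 0.0683), nor was that of B2M without erlotinib replicate 1 (adjusted p = 0.0518). IFITM1, outside the list, read 96.1 and 91.0 CPM with osimertinib (log2 difference -0.55 ± 0.10, adjusted p = 0.00022). In PC9, 22 of the 37 effectors rose and 5 fell, beside 6244 higher and 5568 lower of all 19108 genes. The difference between the lines was called above for 15 and below for 10 of them. MX1 changed by 1.44 on the log2 scale in PC9 and by 1.67 in H1650, and OAS3 by -2.36 and 0.77.

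The few calls among checkpoint ligands, cytokines and complement genes went in both directions and stand beside 18.0% of all genes called higher and 18.5% called lower. Of 9 checkpoint ligands tested 3 rose and 2 fell (median 0.01). PVR, a ligand of the receptor TIGIT, read 388 and 372 CPM at T0 and 184 and 205 CPM with erlotinib. VTCN1, a B7 family ligand, read 30.0 and 29.8 CPM and 51.8 and 51.2 CPM. CD274, the ligand PD-L1, read 3.17 and 3.82 CPM and 2.27 and 3.26 CPM and was not called. Of 14 cytokines tested 4 rose and 4 fell (median -0.09). The rises numbered 2 without erlotinib replicate 1 and 1 without erlotinib replicate 2. IL6, an inflammatory cytokine, fell from 73.0 and 75.2 CPM to 30.6 and 39.4 CPM, and the chemokine CXCL8 fell from 1.59 and 1.47 CPM to 0.413 and 0.279 CPM. The chemokine CCL5 rose from 17.1 and 17.1 CPM to 28.6 and 34.5 CPM. The interferon-induced chemokines CXCL9, CXCL10 and CXCL11 did not pass the filter. Of 12 complement genes 2 rose and 1 fell (median 0.30), with the membrane regulator CD55 at 84.2 and 74.5 CPM and 114 and 115 CPM.

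Cell cycle genes fell moderately. In mitosis 25 of 25 tested members were lower (median log2 fold change -0.67). MKI67, the proliferation marker Ki-67, read 512 and 496 CPM at T0 and 222 and 293 CPM with erlotinib (log2 fold change -0.97 ± 0.10, adjusted p = 2e-08). PLK1, a mitotic kinase, read 316 and 295 CPM and 167 and 164 CPM. TOP2A, a topoisomerase, read 564 and 571 CPM and 374 and 412 CPM. All 3 were lower without overlap. In DNA replication 19 of 27 were lower and 0 higher (median -0.43). RRM2, a subunit of ribonucleotide reductase, read 458 and 467 CPM and 237 and 259.6 CPM, whereas PCNA, the sliding clamp, read 191 and 183 CPM and 187 and 179.8 CPM and was not called. E2F1, a factor that drives S phase genes, read 280.3 and 247 CPM and 277 and 249 CPM and was not called. The E2F site TTCCCGC occurred in 14 of 32 promoters of the replication list (43.8%) and in 6.55% of all promoters. In PC9 the medians were -3.45 for replication and -3.11 for mitosis, and the difference between the lines was called for all 27 and all 25 members. MKI67 read 384 and 432 CPM and 35.2 and 46.0 CPM in PC9 (log2 difference 2.36 ± 0.15, adjusted p = 3.6e-13).

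Among G1 cyclins, kinases and inhibitors, 1 of 15 tested members rose and 6 fell (median -0.27, or -0.29 without a member that had no reads in the 4 libraries). Cyclin D1, CCND1, read 210.3 and 216 CPM at T0 and 199 and 207 CPM with erlotinib and was not called, whereas in PC9 it read 716 and 749 CPM and 180.3 and 182 CPM (log2 difference 1.95 ± 0.09, adjusted p = 9.3e-16). The inhibitor CDKN1A fell from 346 and 325 CPM to 233 and 236 CPM. CDKN1B read 60.4 and 54.0 CPM and 67.3 and 63.5 CPM and was not called.

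FOXO factors and their targets rose. In this list 13 of 18 tested members rose and 0 fell (median 0.55). TNFSF10, the death ligand TRAIL, read 0.933 and 1.74 CPM at T0 and 10.2 and 8.98 CPM with erlotinib (log2 fold change 2.80 ± 0.23, adjusted p = 1e-10). BCL6, a transcriptional repressor, read 17.4 and 19.2 CPM and 48.8 and 40.5 CPM. YPEL3, a growth suppressor, read 10.0 and 10.2 CPM and 36.4 and 29.1 CPM. The 3 were higher in both erlotinib libraries than in either T0 library. FOXO1, FOXO3 and FOXO4 rose by 0.60, 0.37 and 1.38 on the log2 scale. CITED2, which read 169.8 and 140.1 CPM and 160.0 and 143 CPM, was not called in H1650 and changed by 3.53 on the log2 scale in PC9 (log2 difference -3.56 ± 0.14, adjusted p = 2.3e-17). The difference between the lines was called below for 11 of the 18 members and above for 2. FOXO1 and FOXO3 were no longer called without erlotinib replicate 2 (adjusted p = 0.169 and 0.106) or T0 replicate 2 (adjusted p = 0.0881 and 0.0707).

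Among the BH3-only genes of the BCL2 family, whose products start mitochondrial apoptosis, 4 of 8 rose and 0 fell (median 0.39). BMF read 28.3 and 30.8 CPM at T0 and 72.7 and 78.6 CPM with erlotinib (log2 fold change 1.35 ± 0.09, adjusted p = 2e-12). BBC3, the protein PUMA, read 5.97 and 5.13 CPM and 19.2 and 14.1 CPM. HRK read 5.46 and 6.10 CPM and 15.1 and 15.1 CPM. BCL2L11, the protein BIM, read 42.6 and 48.4 CPM and 67.1 and 69.9 CPM (log2 fold change 0.59 ± 0.08, adjusted p = 1.9e-06). The 4 genes were higher in both erlotinib libraries than in either T0 library. BMF rose from 1.76 and 1.09 CPM to 86.9 and 94.1 CPM in PC9 (log2 difference -4.63 ± 0.18, adjusted p = 6.4e-18), and BCL2L11 from 18.9 and 19.1 CPM to 61.7 and 59.5 CPM (log2 difference -1.08 ± 0.12, adjusted p = 3.2e-08). Of 7 survival and effector members tested 0 were called higher and 1, the effector BOK, was called lower, at -0.48 on the log2 scale (median -0.17). MCL1, the survival protein MCL-1, read 241 and 248 CPM at T0 and 214 and 221 CPM with erlotinib and was not called. BCL2L1, the survival protein BCL-XL, read 134 and 133 CPM and 126 and 131 CPM and was not called.

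Other receptor tyrosine kinases fell in part, with 2 of 14 tested higher and 7 lower (median -0.32). AXL, a receptor of the TAM family, read 153 and 144 CPM at T0 and 49.8 and 58.1 CPM with erlotinib (log2 fold change -1.46 ± 0.08, adjusted p = 4.3e-14), and the insulin receptor INSR read 9.19 and 7.95 CPM and 11.6 and 12.6 CPM and was called higher. IGF1R, the insulin-like growth factor receptor, read 40.7 and 39.3 CPM and 47.3 and 44.3 CPM and was not called. INSR was no longer called without erlotinib replicate 2 or T0 replicate 2 (adjusted p = 0.101 and 0.134).

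Of 25 lung lineage and secretory genes 12 passed the filter on low counts, of which 7 were higher and 2 lower (median log2 fold change 1.11). Their summed level changed little, from 377.8 and 401.5 CPM at T0 to 388.5 and 401.2 CPM with erlotinib. LAMP3, a lamellar body protein, read 12.9 and 11 CPM at T0 and 30.9 and 36.3 CPM with erlotinib (log2 fold change 1.50 ± 0.13, adjusted p = 7.9e-10). AGER, a receptor of type I alveolar cells, read 6.67 and 8.03 CPM and 19.1 and 19.4 CPM. AQP3, a water channel, read 3.40 and 2.74 CPM and 10.7 and 13.9 CPM. LCN2, an iron-binding defense protein, rose by 1.19 on the log2 scale, and the protease inhibitor SLPI was called lower, at -0.28. The factor NKX2-1 and the surfactant genes SFTPB and SFTPC were below the filter in this line, as given above. Of 7 mucins tested 3 rose and 0 fell, among them MUC1, which read 119.5 and 118 CPM and 179.6 and 165 CPM, and MUC16, which read 0.746 and 1.00 CPM and 3.82 and 4.19 CPM. SLPI was no longer called without erlotinib replicate 1 or T0 replicate 2 (adjusted p = 0.0586 and 0.115).

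The largest rises in absolute level were in mitochondrial transcripts. MT-RNR2, the large ribosomal RNA of mitochondria, read 3582 and 4371 CPM at T0 and 7316 and 7704 CPM with erlotinib (log2 fold change 0.92 ± 0.08, adjusted p = 1.2e-09). Of the 13 protein-coding transcripts 4 rose, 0 fell and 9 were not called (median 0.10). The rises numbered 1 without T0 replicate 1, 2 without erlotinib replicate 2 and 8 without T0 replicate 2. MT-CO1, a subunit of cytochrome oxidase, read 8144 and 9471 CPM and 11653 and 11377 CPM, and MT-ND4, a subunit of complex I, 7260.4 and 8864 CPM and 10167 and 10252 CPM. The T0 libraries themselves were apart, with the second higher for all 13 transcripts. The called rises, in MT-CO1, MT-CO2, MT-CO3 and MT-ND4, were at most 0.39 on the log2 scale. MT-ND4 was no longer called without T0 replicate 1 (adjusted p = 0.146). MT-CO2 and MT-CO3 were no longer called without erlotinib replicate 2 (adjusted p = 0.156 and 0.187) or T0 replicate 1 (adjusted p = 0.538 and 0.195).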

How the data were processed

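Polyadenylated RNA of H1650 and PC9 cells was sequenced in 12 libraries, 2 in each of 6 groups. The deposited table holds raw counts per gene, which the authors made with featureCounts in the DolphinNext pipeline, along with a gene length that was not used. GRCh38 is the build in the submitters' processing notes. The aligner, annotation and strand setting are not given in the sources used here, so the values of overlapping and antisense genes are uncertain. Such overlaps are marked in the text for some genes only. Among the others, DDIT3 and CTSD also overlap exons of another gene on the same strand. No per-sample column was left unused.

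Of 60591 genes, 19108 passed filterByExpr of edgeR and held at least 99.9% of the counts of every library. The 41483 others were left out. Library totals ran from 17961765 to 26346187, and TMM factors from 0.941 to 1.08. All 12 libraries entered 1 quasi-likelihood fit with a mean per group (edgeR 4.0.16, R 4.3.3), which left 6 residual degrees of freedom. Genes were called at a Benjamini-Hochberg adjusted p under 0.05. Erlotinib was compared with T0 and with osimertinib in H1650, and its change was compared between H1650 and PC9. Folds are 2 to the power of the fitted log2 fold change. Alternatives were DESeq2 1.42.0, other scalings and filters, smaller sets of libraries, a replicate block and leaving out each library.

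The text names the 12 highest and 12 lowest called changes of at least 10 CPM, the 5 largest falls and rises in absolute level, the 8 highest and 8 lowest differences from osimertinib, the 5 on each side that differed most between the lines, and members of the gene lists. The comparison and the lists were chosen with earlier results of these data known. Gene positions come from GENCODE 29, and promoters, 250 bases before to 50 after a start, from RefSeq on GRCh38.p14, matched by symbol. Some members of the lists are not reported here.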

Additional observations from a re-analysis of the deposited data

Results flagged for a closer look

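The change between T0 and 36 h of erlotinib differed between H1650 and PC9 for 7802 genes (40.8% of the genes tested) by the test of the difference between the 2 lines, with 2 libraries in each group. Counted apart from that test, 840 genes were called in both lines in opposite directions, with 376 higher in H1650 and lower in PC9 and 464 the reverse. The genes named here are the 5 largest differences on each side among those 840 that averaged at least 10 CPM in each line, and each value is the log2 fold change in H1650 minus that in PC9. On the higher side, ETV5, an ETS factor, differed by 7.80 (adjusted p = 1.5e-19), TGM2, a transglutaminase, by 7.14, TRIB2, a pseudokinase, by 5.65, SLCO4A1, an organic anion transporter, by 5.05 and SPRED2, an inhibitor of ERK signaling, by 4.82. The level of ETV5 went from 62.1 and 63.5 CPM to 1.25 and 0.625 CPM in PC9 and from 5.22 and 6.56 CPM to 19.2 and 19.6 CPM in H1650. On the lower side the differences were -4.84 for GASK1B, a Golgi protein, -4.56 for MYL9, a myosin light chain, -4.51 for KANK4, an adhesion-associated protein, and -4.17 and -4.17 for ATF3, a stress-induced factor, and KRT16, a keratin of wounded epithelium. In PC9, MYL9 read 5.09 and 4.39 CPM at T0 and 39.3 and 31.1 CPM with erlotinib, against 1157 and 1038 CPM and 325 and 364 CPM in H1650. The groups held 2 libraries each, too few for a check of single libraries that stand apart.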

How the results depend on the processing

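No gene named in the text was called in opposite directions by 2 settings. The balance of higher to lower calls did turn in the comparison with T0, from 3438 and 3528 to 3512 and 3459 with upper quartile scaling and to 2634 and 2576 without erlotinib replicate 1. It also turned in the difference between the lines, from 4025 and 3777 to 3541 and 4340 with upper quartile scaling, which moved the median over all genes from -0.03 to -0.11 on the log2 scale. For erlotinib against T0 in H1650, the number of genes called ran from 5122, at an adjusted p under 0.01, to 7821 with the replicate number as a block, and from 5210 to 5932 with 1 library left out, against 6966. Changes over 2-fold fell from 1552 to 772 genes when at least 10 counts were required in each of the 12 libraries. That filter takes out genes near 0 in any group, including genes near 0 in PC9 only. DESeq2 called 5906 genes. Among genes named in the text it did not call DDIT3, DNAJB9, HLA-B, INSR, MT-ND4 and SPRED3, and the fit of the 4 libraries alone did not call KRT18 and STAT3. Against osimertinib, 1672 genes were called, 912 at an adjusted p under 0.01, 2670 with the block and 782 to 1140 with 1 library left out, and the cause of the last 2 was not tested. The test of the difference between H1650 and PC9 called 7802 genes, 8467 with the block and 6790 to 7247 with 1 library left out. The deviations of same-numbered libraries correlated between -0.0671 and 0.0947 over the pairs of groups, so the numbers were not taken to pair the libraries. Of the medians of the gene lists, 81 recomputed values moved by more than the spread between libraries, 42 of them with 1 library left out, 517 did not, and none changed sign beyond that spread. Depth limits the genes under about 1 CPM, where 1 group held few or no reads.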
